A study of Sus scrofa with 6 samples.

Results

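The probes for ssc-miR-204, ssc-miR-218, ssc-miR-365-3p and ssc-miR-374a-5p are 4 of the 322 pig miRNA probes on the array. They were picked from these same arrays by name, as probes with a higher signal in paced replicates 2 and 3, but not in paced replicate 1, than in sham animals. The values of the paced and sham animals in these 4 miRNAs are therefore a description, with no test. LA RNA of 3 sham and 3 paced pigs was hybridized to 1-colour miRNA arrays, with 1 array per animal and 9 repeat spots per probe. In the paced animals, labelled PAF group for paroxysmal atrial fibrillation (AF), the right atrium was burst-paced through a catheter after the beta blocker esmolol, to induce brief AF, and the sham-operated animals had no burst pacing. Tissue was taken about a day later. The sources differ on age, since the labels call the animals neonatal piglets and the methods call them Large white pigs of 3 months.

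A miRNA guides Argonaute to messenger RNAs that match its seed, the bases 2 to 8 counted from its 5′ end, and lowers their translation and stability. The genes of these 4 miRNAs lie at unrelated loci. In the RefSeq gene table of Sscrofa11.1, MIR204 lies within TRPM3, which encodes a cation channel, on chromosome 1. MIR218-1 lies within SLIT2 on chromosome 8 and MIR218B within SLIT3 on chromosome 16, both of which encode secreted ligands of ROBO receptors. miR-218 is known from motor neurons. MIR365-2 on chromosome 12 lies within 20 kb of MIR193A, and a further copy, MIR365-1, lies within an uncharacterized long non-coding RNA gene on chromosome 3. The miR-193b and miR-365 genes are known from brown fat, and the array has no probe for miR-193b. MIR374A lies on chromosome X within 20 kb of MIR545, and in the same long non-coding RNA gene as MIR374B. MIR421 lies within 20 kb of MIR374B. The array files give no genome build, so coordinates are not printed.

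The target sequences that the array files give for the members, and for the probes that share a seed with 1 of them, show how close the related probes are. Capitals mark the seed.
miR-204: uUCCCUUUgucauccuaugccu
miR-218: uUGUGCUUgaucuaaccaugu
miR-218b: uUGUGCUUgaucuaaccaugug
miR-365-3p: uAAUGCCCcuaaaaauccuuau
miR-374a-5p: uUAUAAUAcaaccugauaagug
miR-374b-5p: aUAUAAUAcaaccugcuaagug
No seed was shared between members. The seeds of miR-204 and miR-365-3p were found in no other probe of the array. The seed of miR-218 was shared by 1 other probe, miR-218b, whose target matches miR-218 over 21 bases and has 1 further base at its 3′ end. The seed of miR-374a-5p was shared by 1 other probe, miR-374b-5p, which differs by the substitutions U1A and A16C, counted from the 5′ end with the base of miR-374a-5p first. Every other probe differed from a member by at least 9 edits. The G and C content of the members was 45.5% (miR-204), 38.1% (miR-218), 31.8% (miR-365-3p) and 27.3% (miR-374a-5p), against a median of 47.6% over all 322 probes.

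The members lie near the detection limit of the array, and the array of paced replicate 1 had the brightest empty spots. The median signal of the 786 empty spots was 214, 64.7 and 117 scanner units in sham replicates 1, 2 and 3, and 399, 242.5 and 261 in paced replicates 1, 2 and 3. A probe is called well above background here where its median over the repeat spots lay over 3 SD of the empty spots above their median. There were 104 such probes in paced replicate 1 and 126 to 175 in the other animals. In paced replicate 1, 58.1% of all probes had a median under that of the empty spots, against 3.11% to 42.2% in the other animals.

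The tissue label was checked on 5 cardiac muscle miRNAs (miR-1, miR-133a-3p, miR-133b, miR-208b and miR-499-5p), of which 4 were well above background in all 6 animals. Their summed normalized intensity was 57724 in paced replicate 1, between 59892 and 62153 in the sham animals, and 67836 and 68853 in paced replicates 2 and 3. The order of the groups in this sum is that of the members. The 2 miR-133 probes were the brightest on every array, where quantile normalization fixes their values, so they carry no information on this order. By themselves the probes of miR-1 and miR-499-5p had this order, and the miR-208b probe did not. The log2 intensity of miR-208b in paced replicate 3 was 8.29, within the sham range of 8.18 to 8.77. The summed intensity of the 5 fibroblast probes (the miR-199 arms and miR-214) had the reverse order. It was 26679 in paced replicate 1, 23302 to 25447 in the sham animals, and 21598 and 22982 in paced replicates 2 and 3. No single probe of the 5 had this reverse order in full. For miR-199b-3p, paced replicate 3 was the highest of the 6 animals, at 12.43 on the log2 scale. The sum of the smooth muscle probes (miR-143-3p and miR-145-5p) was 19230 to 22956 in sham and 17107 to 19081 in paced animals, without overlap. By itself miR-143-3p had no overlap, as was the case for 17.4% of all single probes. The groups overlapped for miR-145-5p, with paced replicate 1 at 13.64 on the log2 scale against 13.61 to 13.90 in sham animals. The part of these sums in the members' values was not tested. In RNA of whole tissue, fewer cells of a type and less RNA per cell cannot be told apart. The pattern of the members, shown by 9.94% of all probes, was shown by 2 of the 5 cardiac muscle probes. It was also shown by 1 of 2 neural probes (miR-9 and miR-124a, both well above background in no animal). The counts were 0 of 2 smooth muscle, 0 of 2 endothelial and 0 of 5 fibroblast probes. They were likewise 0 of 3 erythroid, 0 of 4 leukocyte, 0 of 1 liver and 0 of 1 brown fat probes. The liver probe (miR-122) and the brown fat probe (miR-365-5p) were well above background in no animal.

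The normalized log2 intensity of miR-374a-5p was 7.71, 7.49 and 8.04 in sham replicates 1, 2 and 3, and 7.25, 8.93 and 9.08 in paced replicates 1, 2 and 3. Paced replicates 2 and 3 lay above every sham animal and paced replicate 1 below every sham animal. Before normalization, the repeat spots had a median of 320, 106 and 244 scanner units in the sham animals and of 355, 669 and 636 in the paced animals. The paced replicate 1 value was thus under the empty-spot median of 399 on its own array. The mean was 7.75 ± 0.28 (SD, n = 3) for sham and 8.42 ± 1.02 (SD, n = 3) for paced animals, a difference of 0.67 on the log2 scale. The mean of paced replicates 2 and 3 lay 1.26 above the sham mean on the log2 scale. The probe was well above background in 2 of 3 sham animals, not in sham replicate 1. Each sham value was then raised, where it was lower, to the lowest value of a probe well above background on that array. Against these, paced replicates 2 and 3 were at least 2.22-fold higher, in the processing as reported and with all sham animals. With no sham value raised, the log2 difference of 1.26 became 0.997 with no background correction and 1.09 without sham replicate 2. In paced replicates 2 and 3 each of the 9 repeat spots lay above every sham spot. In paced replicate 1, 6 of 9 spots lay below every sham spot, against 5 (miR-204), 5 (miR-218) and 3 (miR-365-3p). The spots are technical repeats on the arrays that chose the members, so nothing is read from these counts.

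The miR-204 probe, for a miRNA known from the retinal pigment epithelium, gave log2 intensities of 7.56, 7.76 and 7.47 in sham replicates 1, 2 and 3, and 7.24, 8.67 and 8.41 in paced replicates 1, 2 and 3. The order of the groups was the same as for miR-374a-5p, although the highest sham value here came from replicate 2 rather than 3. The unprocessed medians were 283, 143 and 172 scanner units in sham and 350, 580 and 473 in paced animals. The group means were 7.60 ± 0.15 and 8.10 ± 0.76 (SD, n = 3 each), with a difference of 0.51. Paced replicates 2 and 3 lay 0.94 above the sham mean on the log2 scale, while paced replicate 1 was at -0.36. As sham replicate 1 was not well above background, the fold of paced replicates 2 and 3 was taken as for miR-374a-5p. It is at least 1.72 in the processing as reported. With no background correction, and no sham value raised, their log2 difference from the sham mean was 0.72. In paced replicate 3, 7 of 9 repeat spots lay above every sham spot, and in paced replicate 2, 9 of 9 did.

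The miR-218 probe gave log2 intensities of 7.24, 7.33 and 7.47 in sham replicates 1, 2 and 3, and 7.05, 8.15 and 7.93 in paced replicates 1, 2 and 3. Again paced replicate 1 was the lowest of the 6 animals and paced replicates 2 and 3 the highest. The unprocessed medians were 222, 93.2 and 170 scanner units in sham and 340, 438 and 379 in paced animals. The group means were 7.35 ± 0.11 and 7.71 ± 0.58 (SD, n = 3 each), with a difference of 0.37. Relative to the sham mean, paced replicates 2 and 3 were at 0.70 on the log2 scale and paced replicate 1 at -0.29. Sham replicate 1 was again not well above background, and the fold of paced replicates 2 and 3 is at least 1.35 in the same processing.

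The miR-365-3p probe was well above background only in paced replicate 2. Its log2 intensity was 6.84, 7.12 and 7.05 in sham replicates 1, 2 and 3, and 6.75, 7.50 and 7.57 in paced replicates 1, 2 and 3. The same order held. The unprocessed medians were 176, 76.9 and 133 scanner units in sham and 313, 350 and 317 in paced animals. The group means were 7.003 ± 0.15 and 7.27 ± 0.45 (SD, n = 3 each), a difference of 0.27. As no sham array had this probe well above background, its sham level has only an upper limit, of 7.57. Neither the mean of the paced animals nor that of paced replicates 2 and 3, at 7.53, exceeded this limit, so the size of any difference from sham was not measured.

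**Figure D1:**
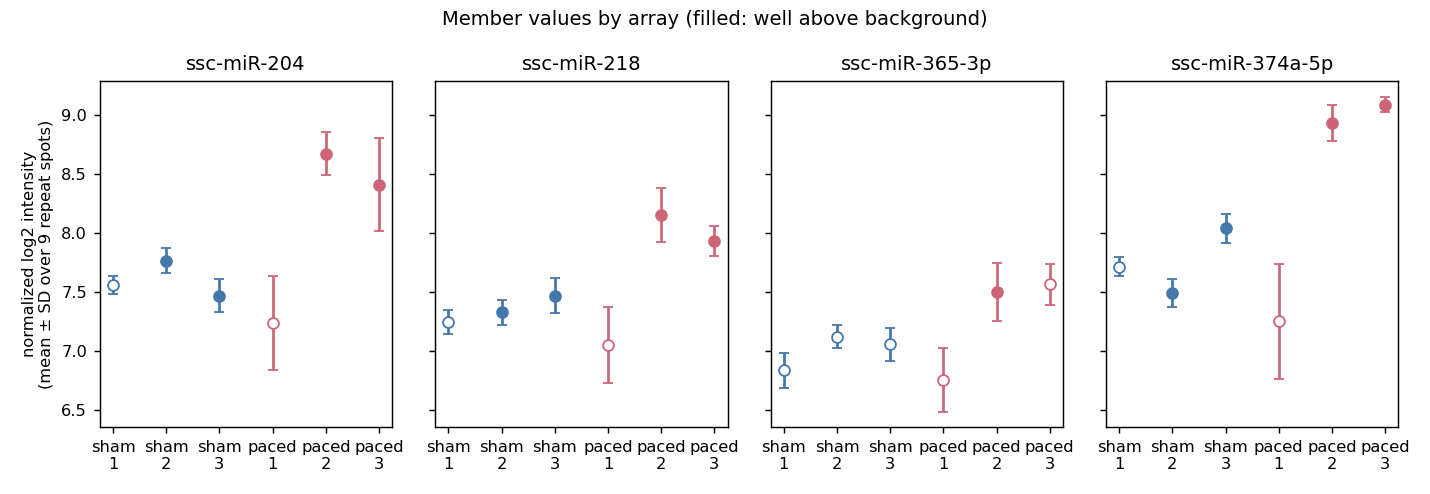
Normalized log2 intensity of the 4 members on each array (x axis, sham and paced replicates 1 to 3). Points are means and bars the SD over the 9 repeat spots of that array; blue is sham, red is paced, and filled points are well above background. In all 4 panels paced replicates 2 and 3 lie above the sham animals and paced replicate 1, an open point, lies lowest.

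Within an array, the repeat spots of a member had an SD of 0.07 to 0.49 on the log2 scale, a technical spread and not a spread between animals. It was widest in paced replicate 1 for each member, at 0.40 (miR-204), 0.32 (miR-218), 0.27 (miR-365-3p) and 0.49 (miR-374a-5p). The SD between the 3 sham animals was 0.15 (miR-204), 0.11 (miR-218), 0.15 (miR-365-3p) and 0.28 (miR-374a-5p). Between the paced animals it was 0.76, 0.58, 0.45 and 1.02 in the same order, in each case wider than the difference between the group means.

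The low values of paced replicate 1 are limits rather than measured levels. None of the 4 members was well above background there, and the median of each lay below that of the empty spots. None was well above the 15 empty spots nearest to each repeat spot either, a comparison added after seeing the data. The lowest normalized log2 value of any probe well above background in paced replicate 1 was 8.71. In the other arrays this limit was 8.04, 7.27 and 7.40 in sham replicates 1, 2 and 3 and 7.32 and 7.74 in paced replicates 2 and 3. The mean of paced replicates 2 and 3 was 8.54 for miR-204, 8.04 for miR-218 and 7.53 for miR-365-3p, each below 8.71. For these 3 miRNAs the array of paced replicate 1 had no probe well above background at a level as low as that of paced replicates 2 and 3. Only miR-374a-5p, at a mean of 9.01 in paced replicates 2 and 3, exceeded the limit of paced replicate 1, by at least 1.23-fold in this processing.

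**Figure D2:**
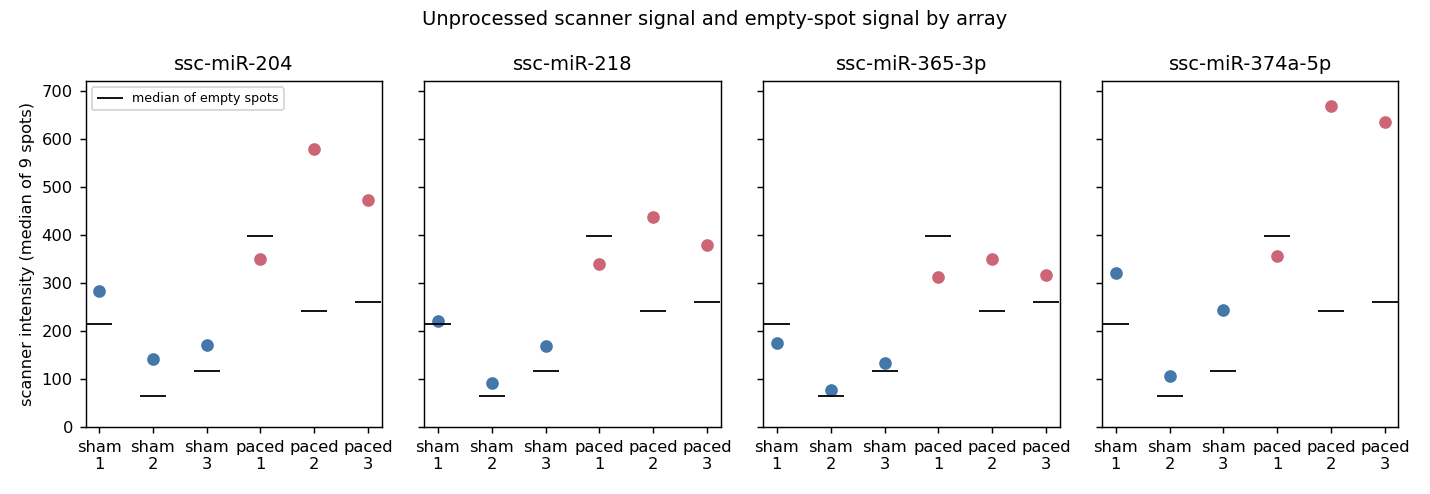
Unprocessed scanner intensity (y axis, linear, median of 9 repeat spots) of each member on each array, with the median of the empty spots of the same array as a horizontal bar (blue sham, red paced). In paced replicate 1 all 4 members lie under the empty-spot bar at 399 units.

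The authors' processed values, a separate processing of the same arrays, placed the animals in the same order. For miR-374a-5p they were 91.6, 55.8 and 132 in sham and 45.4, 377 and 424 in paced replicates 1, 2 and 3. For miR-204 they were 67.1, 96.2 and 59.8 in sham and 39.1, 288 and 238 in paced animals. For miR-218 they were 31.4, 40.6 and 61.7 in sham and 19.3, 163 and 150 in paced animals. For miR-365-3p they were 3.99, 22.9 and 21.7 in sham and 0.859, 74.5 and 96.9 in paced animals. In each case paced replicate 1 had the lowest processed value and paced replicates 2 and 3 the highest.

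All 4 members had both paced replicates 2 and 3 above the highest sham animal and paced replicate 1 not above it, as the rule required. Of all 322 probes, 32 (9.94%) showed this pattern, against 13 of the 104 that were well above background in all 6 animals (12.5%) and 7 of the 143 that were so in none (4.9%). In all 4 members paced replicate 1 also lay below every sham animal, which held for 25 of all probes (7.76%). Without a condition on paced replicate 1, 54 of all probes (16.8%) had paced replicates 2 and 3 above every sham animal, and 56 (17.4%), with 0 of the members among them, had paced and sham values that did not overlap. In limma over all probes, 34 (10.6%) reached an unadjusted p of 0.05 between paced and sham animals, 11 of them (3.42%) higher in paced animals, and 0 did so after adjustment. None of the 4 members was among the 34. Since the rule used this contrast, nothing is read from these counts.

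The margin between the lower of paced replicates 2 and 3 and the highest sham animal, on which the rule selected, was 0.89 on the log2 scale for miR-374a-5p, 0.64 for miR-204, 0.47 for miR-218 and 0.38 for miR-365-3p in the normalized values. These margins take sham values that were not well above background as they stand. At the edge of the rule, let-7f lay just inside with a margin of 0.00026 and miR-9-1 just outside with -0.00012. Paced replicate 1 was at a median of -0.33 relative to the sham mean over the 4 members and of 0.03 over all probes, and paced replicates 2 and 3 were at 0.82 and -0.02.

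**Figure D3:**
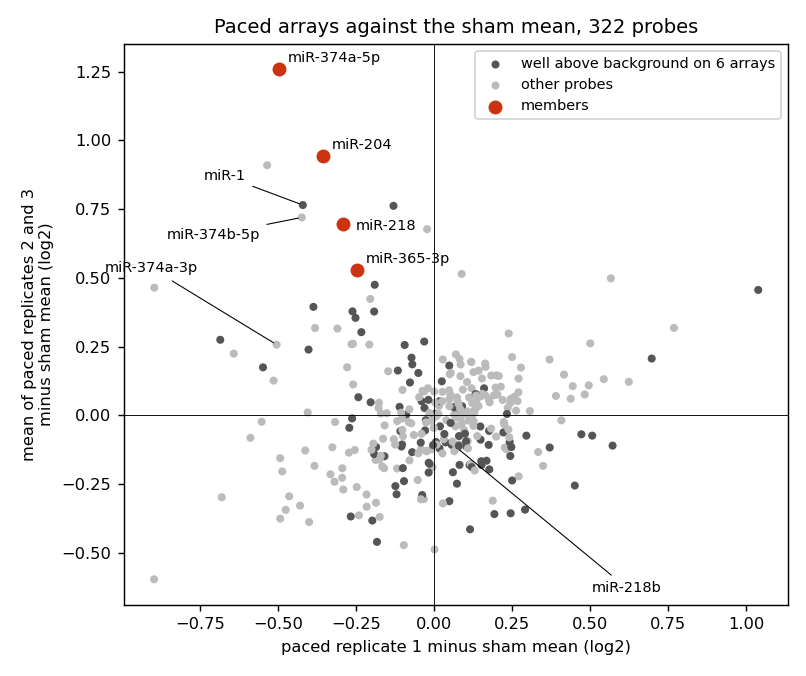
Each point is 1 of the 322 probes. The x axis is the log2 value of paced replicate 1 minus the sham mean and the y axis the mean of paced replicates 2 and 3 minus the sham mean. The 4 members (large points) lie to the upper left, from 0.53 to 1.26 on the y axis, while miR-218b is at -0.12.

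The miRNAs that share a locus, a precursor or a seed with the members were not chosen by the rule, and 12 of them had a probe. In limma 1 of the 12 reached an unadjusted p of 0.05, with a higher value in paced animals (3.42% of all probes), and 0 did so after adjustment, with adjusted p values from 0.375 to 0.997. Their median difference was 0.06 on the log2 scale. Of these, 3 were well above background on all 6 arrays (miR-218b, miR-193a-3p and miR-193a-5p), and 6 on none. The pattern of the members was shown by 2 of the 12, miR-374b-5p and miR-374a-3p, and by 9.94% of all probes.

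The probes of miR-218 and miR-218b, with targets that differ by 1 terminal base, gave different profiles. Signal from each RNA on the probe of the other was not tested, so the profiles cannot be assigned to 2 separate miRNAs. The log2 intensity of miR-218b was 8.91, 8.80 and 9.22 in sham replicates 1, 2 and 3, and 9.05, 9.01 and 8.71 in paced replicates 1, 2 and 3, and the groups overlapped. It was well above background in every animal, paced replicate 1 included. Paced minus sham was -0.05 (limma, SE 0.14, adjusted p = 0.906), between group means of 8.98 ± 0.22 and 8.92 ± 0.18 (SD, n = 3 each). The mean of paced replicates 2 and 3 was -0.12 relative to sham, where miR-218 was at 0.70. Across the 6 arrays Pearson's r between the 2 probes was -0.21, a description over arrays that share their processing. The other arm, miR-218-3p, was well above background in no animal, with a difference of 0.04 (SE 0.06, adjusted p = 0.840).

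The probe of miR-374b-5p, by contrast, followed that of miR-374a-5p. Its log2 intensity was 8.90, 8.88 and 9.21 in sham replicates 1, 2 and 3, and 8.57, 9.52 and 9.92 in paced replicates 1, 2 and 3. Paced replicates 2 and 3 were again above every sham animal and paced replicate 1 below every sham animal. The difference between the group means of 9.00 ± 0.19 and 9.34 ± 0.69 (SD, n = 3 each) was 0.34 (SE 0.32, limma, adjusted p = 0.740), within the spread between paced animals. It was 0.73 without paced replicate 1 and 0.041 without paced replicate 3. Leaving out paced replicate 1 gives the contrast by which the rule chose the members, so no test is read from it. Across the 6 arrays Pearson's r with miR-374a-5p was 0.97. This probe was well above background in 5 animals, all but paced replicate 1, and in all 6 when set against the nearest empty spots. Its paced replicate 1 value lay 0.31 below the lowest sham animal. The targets differ by 2 bases, and signal from each RNA on the probe of the other was not tested.

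The other arm of the same precursor, miR-374a-3p, was well above background only in paced replicate 2. Its log2 intensity was 7.21, 7.22 and 7.26 in sham and 6.72, 7.45 and 7.53 in paced replicates 1, 2 and 3, the order seen for miR-374a-5p. Its difference came to 0.0026 (limma, SE 0.21, adjusted p = 0.997), with paced replicate 1 below and paced replicates 2 and 3 above the sham animals, and Pearson's r with miR-374a-5p was 0.86. The neighbouring miR-545-3p, the probe with the unadjusted p below the threshold, had a difference of 0.18 (SE 0.07, adjusted p = 0.375) and was well above background in no animal. Its other arm, miR-545-5p, was at 0.15 (SE 0.065, adjusted p = 0.472), and likewise in no animal. From the locus of miR-374b, the difference was -0.22 (SE 0.12, adjusted p = 0.495) for miR-421-3p, 0.06 (SE 0.09, adjusted p = 0.848) for miR-421-5p and 0.12 (SE 0.08, adjusted p = 0.650) for miR-374b-3p, the last 2 well above background in no animal.

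For the miR-365 locus the other arm and the neighbour did not have the order of miR-365-3p. miR-365-5p was well above background in no animal, and its paced mean lay 0.06 above the sham mean (SE 0.07, adjusted p = 0.795 in limma). The neighbour miR-193a-3p was well above background on all 6 arrays, with a mean of 9.43 ± 0.12 (SD, n = 3) for sham and 9.47 ± 0.03 (SD, n = 3) for paced animals. Its difference of 0.04 (SE 0.08, adjusted p = 0.883) was smaller than the spread between sham animals. For miR-193a-5p, at 8.57 ± 0.06 and 8.68 ± 0.31 (SD, n = 3 each), the difference was 0.11 (SE 0.15, adjusted p = 0.837), and the highest value was that of paced replicate 1.

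**Figure D4:**
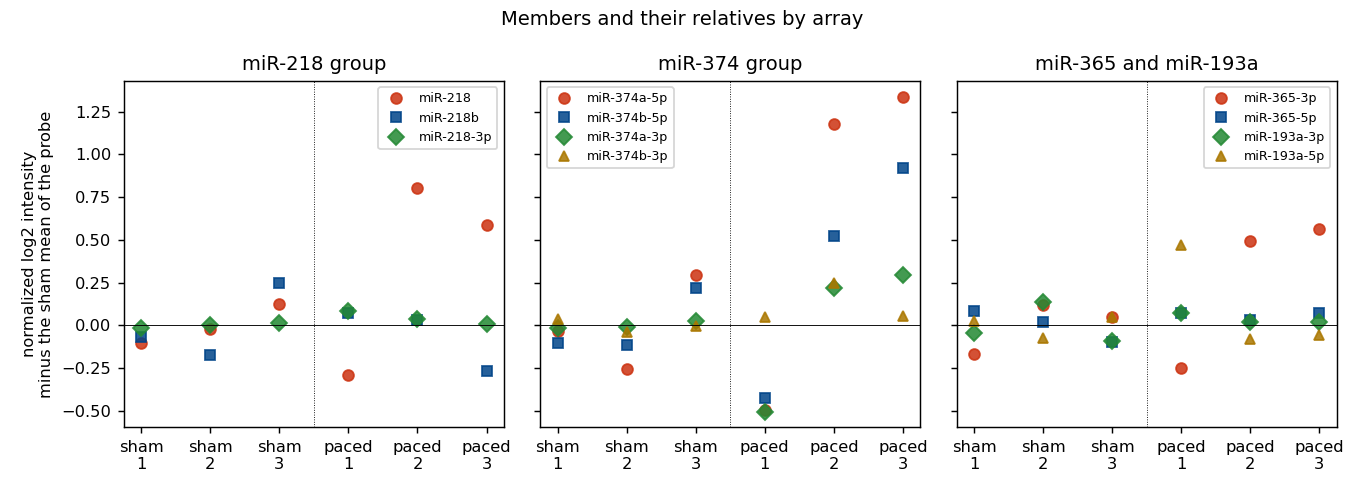
Normalized log2 intensity on each array minus the sham mean of the same probe (y axis) for members and relatives, with arrays on the x axis and a dotted line between sham and paced animals. In paced replicates 2 and 3 miR-374b-5p lies above the sham animals with miR-374a-5p, while miR-218b, at 9.01 and 8.71, lies within or below the sham range of 8.80 to 9.22.

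Probes with profiles most like those of the members were sought by Pearson's r over the 6 arrays among the 104 probes detected well above background in every animal. The arrays are shared by all probes, so r is a description. For the members it includes values that were not well above background, on 5 of 6 arrays for miR-365-3p and on 2 of 6 for each of the others. miR-1, the abundant miRNA of cardiac and skeletal muscle, was among the 3 most alike for all 4 members, with r of 0.90 (miR-204), 0.95 (miR-218), 0.95 (miR-365-3p) and 0.99 (miR-374a-5p). This held for 1 of the members by Spearman's rank correlation and for 2 with all probes as candidates. The log2 intensity of miR-1 was 13.00, 12.99 and 13.23 in sham and 12.65, 13.73 and 13.95 in paced replicates 1, 2 and 3. Among the 104 probes the most alike for miR-204 was miR-27a (r = 0.97), and for miR-365-3p it was miR-1285 (r = 0.98). With all probes as candidates miR-29b ranked above miR-27a for miR-204, with an r of 0.981 against 0.973. The other probes among the 3 most alike were miR-148a-3p for miR-204 and miR-374a-5p (r = 0.90 and 0.95), miR-30e-3p and miR-499-5p for miR-218 (0.94 and 0.94), miR-23a for miR-365-3p (0.93) and miR-186 for miR-374a-5p (0.95). All 8 showed the pattern of the rule, as 12.5% of the 104 did, which follows from their choice by likeness to the members and is no finding. Paced replicate 1, where they were well above background, was lower than their sham mean by 0.05 (miR-23a) to 0.42 (miR-1).

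The leading principal component of these 104 probes, none of which is a member, carried 49.98% of their variance. It placed paced replicate 1 at -2.10, the sham animals between -0.75 and -0.04, and paced replicates 2 and 3 at 1.89 and 1.29. As the members were chosen for this order of the arrays, a high r with the component follows from the choice. Pearson's r between a member and this component over the 6 arrays was 0.94 (miR-204), 0.97 (miR-218), 0.95 (miR-365-3p) and 0.93 (miR-374a-5p), and among the relatives 0.93 for miR-374a-3p, 0.90 for miR-374b-5p, -0.26 for miR-218b and -0.80 for miR-193a-5p, with the other 8 between -0.33 and 0.59. With the log2 empty-spot signal of the arrays, r was between -0.03 and 0.21 for the members and between -0.91 (miR-421-3p) and 0.72 (miR-545-5p) for the relatives. The part of the array background in the members' values was not tested. The G and C content of the 28 other probes with the pattern had a median of 37.2%, and that of the members 34.96%, against 47.6% over all probes. The part of base composition in the pattern was not tested.

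**Figure D5:**
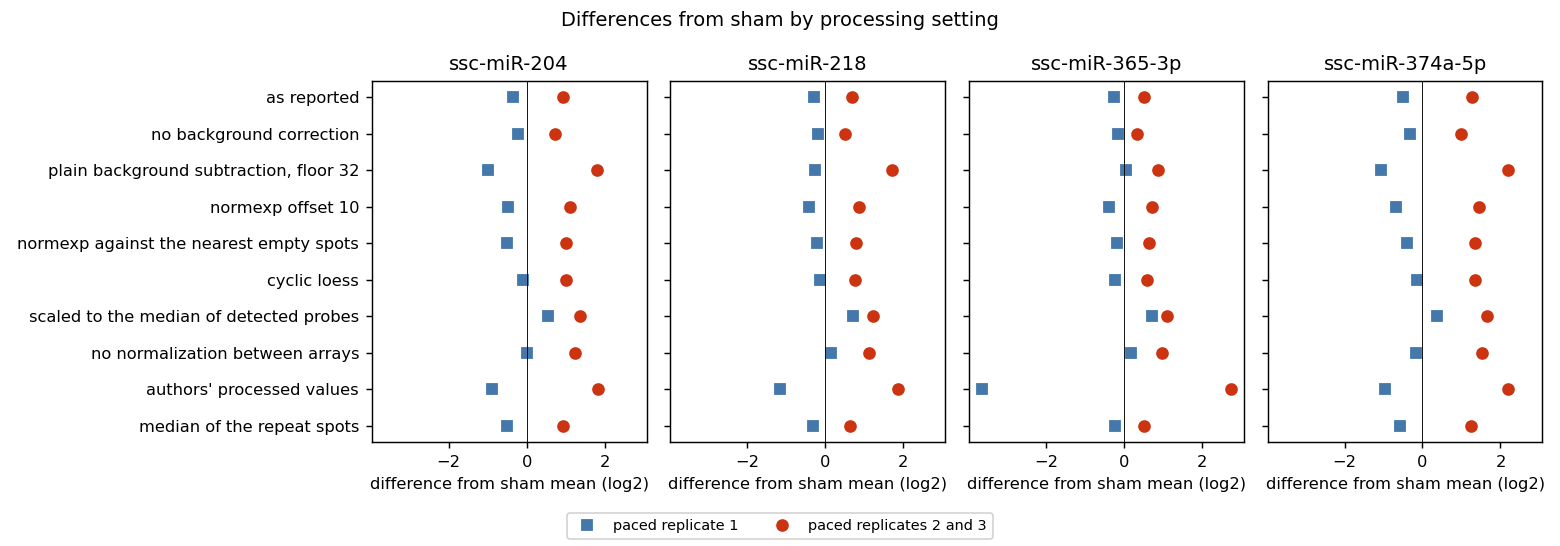
Difference from the sham mean on the log2 scale (x axis) for paced replicate 1 (squares) and the mean of paced replicates 2 and 3 (circles) under each processing setting (rows). The circles lie to the right of 0 in every row, while all 4 squares lie to the right of 0 under scaling to the median of detected probes.

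The value of paced replicate 1 depended on the scaling between arrays. Paced replicates 2 and 3 exceeded the sham mean under every setting for all 4 members. Paced replicate 1 lay below the sham mean as reported, with differences of -0.25 (miR-365-3p) to -0.50 (miR-374a-5p). Under scaling to the median of detected probes it lay above the sham mean, at 0.38 (miR-374a-5p), 0.55 (miR-204), 0.70 (miR-218) and 0.73 (miR-365-3p), and only miR-374a-5p kept the pattern. This scaling moved the median of all probes in paced replicate 1 to 0.72 above sham. Without normalization between arrays, which moved that median to 0.18, paced replicate 1 was above the sham mean for miR-204 (0.011), miR-218 (0.16) and miR-365-3p (0.19), and with plain background subtraction for miR-365-3p (0.052).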

How the data were processed

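The members, lists and tests were chosen with earlier results of these data known. For each array the authors deposited unnormalized scanner intensity, the median of the pixels of a spot (GenePix scanner, Array-Pro software), and a processed intensity per probe, whose background correction and normalization are not given in the sources used here. Of 3968 spots per array, 2898 are pig miRNA spots and 1070 are controls. Scanner intensity was corrected with normexp (offset 50, all spots) in limma 3.58.1 (R 4.3.3). The miRNA spots were quantile-normalized, log2-transformed and averaged per probe, and limma was fitted on all 322 probes with Benjamini-Hochberg adjustment over them. The offset compresses differences between dim probes, and the number of arrays limits the precision. Levels of different probes were not compared, apart from the limits of detection on each array and the naming of the brightest probes.

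Named probes were the members, their relatives (other arms, copies, locus neighbours and shared seeds), the 3 probes most alike to each member, and marker lists as sums (muscle, vessel, fibroblast, blood, neural, liver and fat); an epithelial list had no probe of the names listed. Sequences are the targets in the array files. The fit was tested on 20 simulated sets of 322 probes, with noise added to normalized sham means at an SD of 0.15 between animals. This SD is under that of the members in paced animals (0.45 to 1.02). The fit recovered 100% of 30 probes changed by 1 on the log2 scale, with 1.18% of its calls false. Further probes raised only in paced replicates 2 and 3 were not counted as false. Background correction, normalization and the detection limit were not simulated, so these rates do not describe the fit on the arrays. Alternatives were other background corrections (none, subtraction with a floor of 32, offset 10, the 15 nearest empty spots), other normalizations (cyclic loess, scaling, none), the processed values (floor 1), the median of spots, other tests, a filter on dim probes, and each animal left out in turn. Plots used matplotlib 3.10.9 under Python 3.11.15.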

Additional observations from a re-analysis of the deposited data

How the results depend on the processing

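Scaling to the median of detected probes left 1 of the 4 members with the pattern, against 4 as reported and 3 with plain subtraction, where miR-365-3p lost it. All probes with the pattern numbered 14 with scaling, 12 without normalization, 13 among those well above background in all animals, and 33 to 57 with 1 animal left out (56 without paced replicate 1, 52 without paced replicate 2 and 57 without paced replicate 3, where the rule has fewer animals to meet). Probes past the unadjusted threshold numbered 191 with scaling (182 after adjustment, with the median of all probes shifted by 0.53), 15 without normalization, 5 of 126 without dim probes, and 18 to 69 with 1 animal left out (20 without sham replicate 2, 69 without paced replicate 1, 18 without paced replicate 3). After adjustment 9 passed without paced replicate 1 and 1 without paced replicate 2. The replicate numbers are not stated to pair animals. Deviations of same-numbered animals correlated at 0.18, -0.01 and 0.22, and with a replicate block 33 probes passed the unadjusted threshold and 0 after adjustment, against 34 and 0.

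Differences between paced and sham means moved by more than the pooled SD within both groups with scaling for miR-204 (1.09), miR-218 (1.06) and miR-365-3p (0.99). For miR-218 and miR-365-3p they were 1.05 and 0.61 with plain subtraction, 0.80 and 0.72 without normalization, and 0.86 and 0.62 in the authors' processed values. By less than that SD, miR-374a-5p moved to 1.22 with scaling, 1.14 in the authors' values and 1.10 with plain subtraction, and miR-204 to 0.93 in the authors' values, 0.88 with plain subtraction and 0.83 without normalization. Without paced replicate 1 they were 1.00 (miR-204), 0.75 (miR-218), 0.55 (miR-365-3p) and 1.32 (miR-374a-5p), and they fell to 0.23 (miR-204) and 0.16 (miR-218) without paced replicate 2 and to 0.13 (miR-365-3p) and 0.35 (miR-374a-5p) without paced replicate 3. Paced replicates 2 and 3 against sham were, for miR-204, miR-218, miR-365-3p and miR-374a-5p, 1.82, 1.70, 0.89 and 2.19 with plain subtraction and 1.84, 1.87, 2.76 and 2.19 in the authors' values, with 1.24 (miR-218) and 1.11 (miR-365-3p) with scaling and 0.99 (miR-365-3p) without normalization. Paced replicate 1 against sham was, in that order, 0.55, 0.70, 0.73 and 0.38 with scaling, 0.011, 0.16, 0.19 and -0.17 without normalization, and -0.90, -1.15, -3.65 and -0.95 in the authors' values. It was -1.001 (miR-204), 0.052 (miR-365-3p) and -1.08 (miR-374a-5p) with plain subtraction, -0.093 (miR-204), -0.13 (miR-218) and -0.15 (miR-374a-5p) with cyclic loess, and -0.42 (miR-218) with an offset of 10.

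Among the relatives the direction turned for miR-218b with scaling (0.15) and the median of spots (0.0036), for miR-374a-3p with an offset of 10 (-0.040) and in the authors' values (-0.96), for miR-193a-3p without normalization (-0.041), for miR-545-5p with loess (-0.0045), for miR-421-3p with scaling (0.42) and without normalization (0.16), and for miR-421-5p against the nearest empty spots (-0.23) and with loess (-0.011). With 1 animal left out, the difference ran from -0.14 to 0.069 (miR-218b), -0.14 to 0.28 (miR-374a-3p), 0.041 to 0.73 (miR-374b-5p), -0.0097 to 0.10 (miR-193a-3p), -0.072 to 0.20 (miR-193a-5p) and -0.0075 to 0.11 (miR-421-5p). With scaling 8 of the 12 relatives passed the adjusted threshold, as 182 of all 322 probes did. The cause of these changes was not tested. Signal over background limits the members, since none was well above background in every animal, and miR-365-3p was so in 1 animal. With empty spots taken nearby instead, this rose to 2 animals, and miR-204 and miR-374a-5p were then well above background in sham replicate 1 too.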
